A study of Mus musculus with 24 samples.

Results

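Cortical small RNA of APP/PS1 mice at 6 months was set against that of APP/PS1 mice at 3 months, an interval over which amyloid plaques are known to begin to form in this model. These 6 libraries were the 3 labelled as APP/PS1 at each of the 2 ages, out of 24 libraries in all. The whole set held mice of the APP/PS1 model, which carry mutant human genes for amyloid precursor protein and presenilin linked to familial Alzheimer disease, and wild-type (WT) mice at 1, 3, 6 and 9 months, with 3 mice in each of 8 groups. All were of strain C57BL/6, and the labels name the cerebral cortex in the title of the study and the brain as the tissue of each library. Per the labels, each age group had 2 female mice and 1 male mouse; the sex of each library, the promoters that drive the transgenes and the line of APP/PS1 mice are given in none of the sources used here. WT mice at 6 and 3 months served to ask whether the same change took place without the transgenes. The replicate numbers of the labels name different mice at the 2 ages.

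MicroRNAs (miRNAs) are short RNAs cut from the 5p or 3p arm of a hairpin precursor, and they lower the output of transcripts that pair with their seed, the bases from position 2 to 8. In the cortex they are best known for keeping neurons differentiated and for tuning synaptic proteins, and several, such as the miR-29 family, have been reported to act on transcripts of App or of Bace1, the protease that starts the cut of amyloid precursor protein into amyloid-beta. Some entries named as miRNAs resemble repeated elements of the mouse genome, so a read counted under such a name can come from other transcripts.

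Of the 15 names that differed between the ages, 12 were found in the RefSeq table of mature miRNAs (GRCm38.p6), which matched 358 of the 424 known names tested. Their sequences are shown because they set apart names whose letters recur in many transcripts from names whose letters recur in few or none; capitals mark the seed. The 7 that were higher at 6 months were as follows, each written 5′ to 3′.
miR-690: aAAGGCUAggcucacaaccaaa
miR-3470b: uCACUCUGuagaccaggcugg
miR-3471: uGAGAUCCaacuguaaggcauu
miR-6481: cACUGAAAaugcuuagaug
miR-490-5p: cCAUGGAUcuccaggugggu
miR-153-5p: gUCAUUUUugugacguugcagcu
miR-92a-3p: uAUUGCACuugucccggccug
The 5 that were lower at 6 months follow, of which the last 4 come from the Dlk1-Dio3 locus.
miR-1969: aAGAUGGAgacuuuaacaugggu
miR-337-5p: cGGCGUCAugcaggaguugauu
miR-379-5p: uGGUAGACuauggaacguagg
miR-409-5p: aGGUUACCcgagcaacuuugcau
miR-412-5p: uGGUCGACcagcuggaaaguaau
All 12 seeds differed from each other. The seed of miR-379-5p, GGUAGAC, was also that of miR-1193-5p, which was not called (log2 fold change -1.01, SE 0.65, adjusted p = 0.494, edgeR). miR-3470a, miR-1957a and a predicted miRNA made up the 15.

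The deposited counts summed to between 3464299 and 5110883 per APP/PS1 6-month library and between 5169910 and 6575838 per APP/PS1 3-month library. Every 6-month library was thus shallower than every 3-month one, and the part of depth in the differences was not tested beyond the scaling. miR-124-3p, the defining neuronal miRNA, held 176304 to 210100.0 CPM (counts scaled to a common library size) at 6 months and 185382 to 222886 CPM at 3 months. The oligodendrocyte marker miR-219a-5p had 0 counts in all 6 libraries. Names of other lists stood near 0 too, such as miR-21a-5p of the immune and microglial list at 1 to 6 counts. A 0 in these counts alone thus does not show that a cell type was absent. Of 6 listed oligodendrocyte names only 1, miR-338-3p, had enough counts to be tested. Its other arm miR-338-5p had 1, 8 and 1 counts at 6 months, against 6, 3 and 6 at 3 months. The counts of miR-338-3p were 19 to 32 at 6 months and 18 to 23 at 3 months. Scaled to library size these were 6.44, 5.24 and 6.96 CPM at 6 months, against 3.57, 3.44 and 3.63 CPM at 3 months, without overlap (log2 fold change 0.81, SE 0.28, adjusted p = 0.125; 0.68 in WT). The pituitary and epithelial markers miR-375-3p, miR-141-3p and miR-200b-3p also had 0 counts in all 6. Of the 8 listed names of hypothalamus and pituitary 2 were tested, miR-7a-5p and miR-7b-5p, which are also listed as neuron-enriched. Both were abundant, and the list summed to 4666 to 12148 CPM at 6 months and 6467 to 10756 CPM at 3 months. Their log2 fold changes were 0.08 (SE 0.36, adjusted p = 0.955, edgeR) and -0.19 (SE 0.24, adjusted p = 0.805).

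APP/PS1 6-month replicate 2 stood apart from the other 5 libraries by more than 1.5 times in 19 names with a mean of at least 10 CPM, 12 of them above and 7 below. miR-125a-5p had 59047 CPM in that library, with 18126 and 23587 CPM in the other 6-month libraries, against 19756, 18822 and 17554 CPM at 3 months. miR-125b-5p, its relative with the same seed, had 112949 CPM there, with 54953 and 73814 CPM in the others, against 64902, 61052 and 60254 CPM at 3 months. miR-346-5p had 2387 CPM there, with 774 and 811 CPM in the others, against 636, 813 and 716 CPM at 3 months. miR-132-3p, an activity-regulated neuronal miRNA, was lower there at 1405 CPM, with 2209.5 and 2842 CPM in the others, against 2888, 2464 and 2668 CPM at 3 months. None of these 4 passed with all libraries and the filter in edgeR, and they overlapped between the ages. miR-125a-5p (adjusted p = 0.0383) and miR-346-5p (adjusted p = 0.0443) passed in DESeq2, and both passed with no filter on low counts (adjusted p = 8.5e-10 and 3.61e-07). Both also passed without 6-month replicate 1 (adjusted p = 0.00263 and 0.0118), a fit that kept replicate 2. Neither passed without 6-month replicate 2, the library that stood apart.

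APP/PS1 6-month replicate 1 stood at or above the 3-month level in some miRNAs for which the other 6-month libraries were low. miR-342-3p, which is encoded in an intron of Evl, had 5376 CPM in replicate 1, with 1035 and 778 CPM in replicates 2 and 3, against 4309.7, 4406 and 3653 CPM at 3 months. In WT mice it had 794, 2888 and 783 CPM at 6 months, against 4610.2, 3882 and 4567 CPM at 3 months. miR-376c-3p had 45.5 CPM in replicate 1, with 16.6 and 14.9 CPM in the others, against 46.7, 46.4 and 47.3 CPM at 3 months. In WT it had 13, 15 and 16.2 CPM at 6 months, against 40.6, 42.4 and 37.3 CPM at 3 months. The APP/PS1 log2 fold change of miR-342-3p was -2.16 (adjusted p = 0.00162, edgeR) without replicate 1 and -0.78 (SE 0.51, adjusted p = 0.494) with it.

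Of 433 names tested with edgeR's quasi-likelihood test, 15 (3.46%) differed between 6 and 3 months at an adjusted p under 0.05 in APP/PS1 cortex. Of these 10 rose (2.31%) and 5 fell (1.15%). The median log2 fold change of all 433 names was 0.02, 226 lay above 0, and 70 had an unadjusted p under 0.05. Libraries of the ages did not overlap in 71 names (16.4%), with 42 higher at 6 months (9.7%) and 29 lower (6.7%), and all 15 called names were among them. The p-values set these differences against the spread between mice within all 8 groups of the 24 libraries, not within the compared groups alone. In bulk cortex, fewer cells of a type and less RNA per cell cannot be told apart.

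The count of 15 depended on single libraries. It was 36 without APP/PS1 6-month replicate 1 and 9 without APP/PS1 6-month replicate 3. The 10 that rose became 23 without APP/PS1 6-month replicate 1 and 6 without APP/PS1 3-month replicate 1. The 5 that fell became 13, 10 and 2 without APP/PS1 6-month replicates 1, 2 and 3, and 3 each without APP/PS1 3-month replicate 2 or 3. In a fit of the 6 libraries alone 4 names passed, all of them higher at 6 months. These 4 were miR-3470a, miR-690, miR-3470b and a predicted miRNA, which also passed in all 6 fits that left out a library.

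These 4 rose by more than 10-fold. miR-690 had 176, 286 and 373 CPM in the APP/PS1 6-month libraries, against 28.9, 20.5 and 8.06 CPM in the 3-month libraries. The lowest 6-month library lay far above the highest 3-month one. The log2 fold change was 3.85 (SE 0.44, adjusted p = 4.09e-06), 14.4-fold. Its precursor lies in an intron of Fgf12, which encodes an intracellular partner of voltage-gated sodium channels, on the same strand, and the mature sequence shown above lies at chr16:28599940-28599961 of GRCm38 on the minus strand.

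The predicted miRNA among these 4 had 102, 178 and 219 CPM at 6 months, against 21.8, 16.3 and 6.04 CPM at 3 months, in the same order of libraries as miR-690. Its level lay between 0.583 and 0.796 of that of miR-690 in all 6 libraries and it is not treated as a separate finding. Its log2 fold change was 3.49 (SE 0.42, adjusted p = 6.68e-06).

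miR-3470a had 30.8, 49.4 and 58.2 CPM at 6 months, against 3.75, 3.14 and 3.42 CPM at 3 months. The 3-month libraries were nearly equal, and each 6-month library lay above all of them. The log2 fold change was 3.73 (SE 0.37, adjusted p = 8.57e-07), 13.3-fold. miR-3470b had 17.3, 33.9 and 35.8 CPM at 6 months, against 1.88, 1.65 and 3.83 CPM at 3 months. The ages did not overlap, with the lowest 6-month value again in replicate 1. Its log2 fold change was 3.57 (SE 0.45, adjusted p = 1.17e-05), and its mature sequence lies at chr16:44013885-44013905 on the plus strand, opposite an intron of Gramd1c.

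miR-1957a had 6.84, 8.28 and 21.8 CPM at 6 months, against 2.06, 1.05 and 2.82 CPM at 3 months. Replicate 3 was the highest of the 6-month libraries, which all lay above the 3-month ones. The log2 fold change was 2.63 (SE 0.44, adjusted p = 0.000547), and it became 1.95 (adjusted p = 0.00556) when 6-month replicate 3 was left out.

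miR-6481 was counted 111, 21 and 9 times in the 6-month libraries and 0 times in every 3-month library. This made it at least 67.9-fold higher at 6 months, against a floor of 3 counts over the 3-month group, a bound that covers counting error only. Replicate 1 held most of the counts. The bound was 25-fold without it and 41.1-fold without 3-month replicate 2, and 46.6 to 86.9-fold without any other library. In edgeR the name passed in the fit of all 24 libraries (adjusted p = 0.000688) and without replicate 1 (adjusted p = 0.00251). The call of miR-6481 was lost in the fit of the 6 libraries alone (adjusted p = 0.0876). Its precursor lies opposite an intron of Wars2, which encodes the mitochondrial tryptophanyl-tRNA synthetase, with the mature sequence at chr3:99199367-99199385 on the minus strand.

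miR-3471 was counted 11, 6 and 12 times at 6 months and 0, 3 and 5 times at 3 months. The libraries did not overlap at 2.21, 1.66 and 3.8 CPM against 0, 0.449 and 1.01 CPM. Scaled to library size, the 29 counts at 6 months over the 8 at 3 months gave a ratio of 5.23 (95% exact interval 2.33 to 13.2, counting error only), which was 9.87 without 3-month replicate 3. The fitted log2 fold change was 2.34 (SE 0.62, adjusted p = 0.034). The call was lost without APP/PS1 3-month replicate 1 (1.81, adjusted p = 0.111), without APP/PS1 3-month replicate 2 (2.29, 0.140) and without APP/PS1 6-month replicate 3 (1.98, 0.150). It was also lost with library totals alone (2.25, 0.0538). The value was 3.19 (adjusted p = 0.0166) without APP/PS1 3-month replicate 3. Its sequence lies at chr4:10845585-10845606 on the minus strand.

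**Figure D1:**
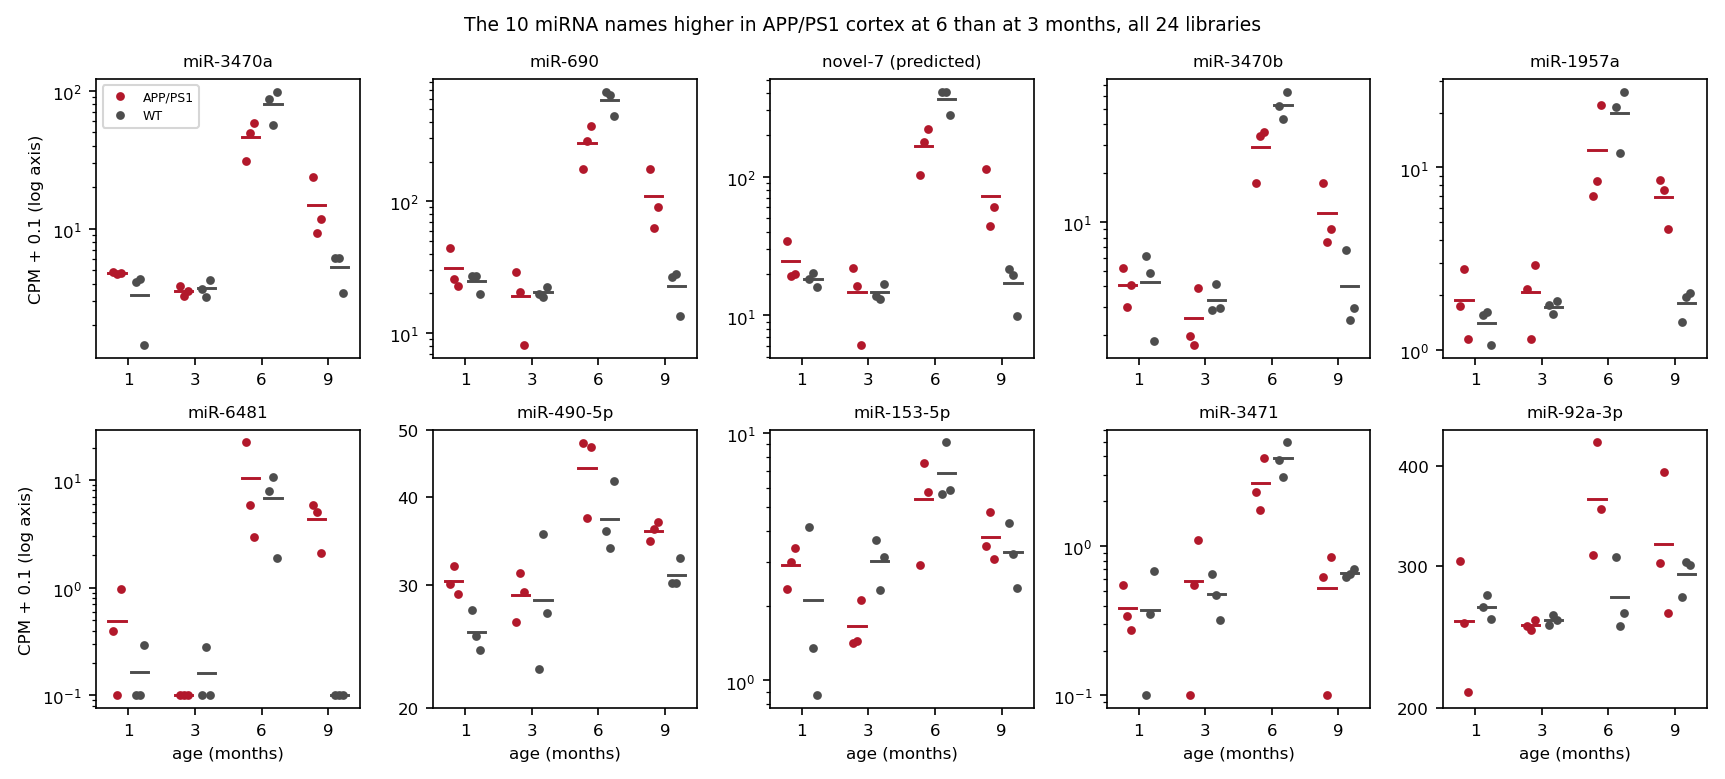
CPM plus 0.1 on log axes (vertical) by age in months (horizontal) for the 10 names higher at 6 than at 3 months in APP/PS1 cortex, with 1 point per library and bars at group means. APP/PS1 mice are in red and WT mice in grey; in the first 5 panels and those of miR-6481 and miR-3471 the 6-month libraries of both genotypes lie above all 3-month ones, for example miR-690 at 176 to 373 CPM in APP/PS1.

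The mature sequences were next searched in annotated transcripts of 55341 gene names (GENCODE M21, GRCm38, both strands). The count for each was of genes that hold at least 18 of its bases in a row. Matches to genes annotated as miRNA genes were left out, and all the rest are called other genes here. A gene whose transcript holds the precursor of the name was thus not left out. This search was chosen after the values were seen and its counts are given with no test. Of 358 names, 8 matched at least 10 other genes, namely miR-3470b (1483 genes), miR-1195 (1245), miR-466i-3p (493), miR-3473a (281), miR-574-5p (109), miR-3471 (70), miR-1191a (14) and miR-690 (14). The other 350 matched at most 5.

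Of these 8, 3 rose, 0 fell, 5 did not overlap between the ages with higher values at 6 months, and their median log2 fold change was 1.76. Of the 350, 4 rose, 5 fell, 30 did not overlap in the higher direction, and the median was 0.01. Against 2.31% of all names that rose and 9.7% that did not overlap in that direction, the 8 names thus held more of both, but they include names that drew attention to the search. Of those among the 8 that did not pass, miR-1195 (sequence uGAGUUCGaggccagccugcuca) had 3.22, 2.76 and 8.23 CPM at 6 months, against 1.69, 1.5 and 2.62 CPM at 3 months. Its groups did not overlap, with a log2 fold change of 1.26 (adjusted p = 0.0635, SE 0.37, edgeR).

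miR-3473a (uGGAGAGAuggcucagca) had 1.01, 1.38 and 3.48 CPM at 6 months, against 0.375, 0 and 0.806 CPM at 3 months (log2 fold change 2.27, SE 0.90, adjusted p = 0.188). It shares a run of 17 bases with the hairpin of miR-690. The pattern did not hold for every name with many matches. miR-466i-3p (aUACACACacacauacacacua), a run of CA repeats, had a log2 fold change of -1.13 (adjusted p = 0.466, SE 0.67). miR-574-5p (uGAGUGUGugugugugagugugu), of GU repeats, had one of -0.63 (SE 0.25, adjusted p = 0.191). miR-6481 matched only 1 other gene. Per the labels, reads that matched repeats were removed before counting; how reads with several matches were counted is given in none of the sources used here, so the transcript of origin of reads under these names was not tested.

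**Figure D2:**
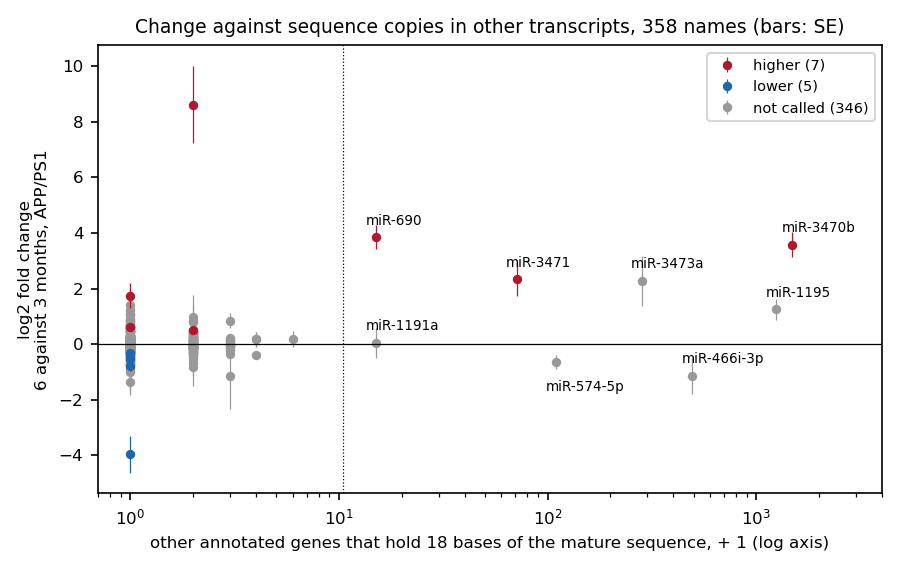
Log2 fold change of APP/PS1 6-month against 3-month libraries (vertical, bars are SE) by the number of other annotated genes plus 1 that hold 18 bases of the mature sequence (horizontal, log axis), 1 point per name for 358 names. Other genes are all those not annotated as miRNA genes, host genes of precursors included. Right of the dotted line stand the 8 names with at least 10 genes, of which 3 rose (red), while miR-574-5p and miR-466i-3p lie below 0; the red point near the top left is miR-6481.

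The other 3 names that rose matched at most 1 gene that is not a miRNA gene, and changed less. Of these, miR-92a-3p had the 1 match, and whether this was to the gene of its own precursor was not tested. miR-490-5p, from an intron of the muscarinic receptor gene Chrm2 (chr6:36421763-36421782, plus strand), had 47.7, 37.2 and 47.2 CPM at 6 months, against 26.5, 31.1 and 29.2 CPM at 3 months. The groups did not overlap, and the log2 fold change was 0.60 (SE 0.14, adjusted p = 0.0169). The other arm, miR-490-3p, had 426 ± 98.6 CPM at 6 months and 287 ± 55.5 CPM at 3 months (SD, n = 3 each), a log2 fold change of 0.57 that did not pass (adjusted p = 0.101, SE 0.19, edgeR), though its libraries did not overlap either. The call of miR-490-5p was lost without APP/PS1 3-month replicate 1 (0.55, adjusted p = 0.078), without APP/PS1 3-month replicate 3 (0.60, 0.0522) and without APP/PS1 6-month replicate 3 (0.54, 0.0682). It was also lost with library totals alone (0.52, adjusted p = 0.0782), no filter on low counts (0.58, 0.192) and the 6 libraries alone (0.58, 0.247).

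miR-153-5p comes from an intron of Ptprn2 (chr12:117250821-117250843, plus strand), which encodes a protein of dense-core vesicles. It had 2.82, 7.45 and 5.70 CPM at 6 months, against 1.31, 1.35 and 2.01 CPM at 3 months. The groups did not overlap but rested on 14, 27 and 18 counts against 7, 9 and 10. On the log2 scale the fold change was 1.74 (SE 0.45, adjusted p = 0.031, edgeR). The abundant arm miR-153-3p, which has been reported to target App transcripts, stood at 4396 ± 1147 CPM at 6 months and 4392 ± 235 CPM at 3 months (SD, n = 3 each), a log2 fold change of 0.00 (adjusted p = 0.992, SE 0.16). The call of miR-153-5p was lost without any 1 of the 3-month replicates 1, 2 and 3 (log2 fold change 1.65, 1.65 and 1.94; adjusted p = 0.110, 0.140 and 0.0569) and without 6-month replicate 2 (1.39, adjusted p = 0.133) or 3 (1.68, adjusted p = 0.0861).

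miR-92a-3p, a member of the miR-17-92 cluster known from cell proliferation and from vessels, had 309.6, 428 and 353 CPM at 6 months, against 253, 250.3 and 257 CPM at 3 months. The 3-month libraries lay close together, below all 6-month ones. On the log2 scale the fold change was 0.52 (SE 0.14, adjusted p = 0.0493). Its precursors lie in an exon of Mir17hg (chr14:115044476-115044496, plus strand, for the mature sequence) and on chromosome X. Of the 7 tested names of miR-17-92 and its paralogs it alone rose and 0 fell, beside 2.31% and 1.15% of all names, and the median was -0.08. The call was lost without any 1 of 5 of the libraries, with an adjusted p of 0.110, 0.140 and 0.128 without 3-month replicates 1, 2 and 3, and of 0.166 and 0.0844 without 6-month replicates 2 and 3, at log2 fold changes from 0.38 to 0.54. It was also lost with RLE size factors (adjusted p = 0.0544), library totals alone (0.0564), no filter on low counts (0.0572), a replicate block (0.0508) and the 6 libraries alone (0.247).

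Among the names that fell, miR-1969 was nearly lost from the counts at 6 months. It had 0, 2 and 0 counts in the 6-month libraries, against 14, 27 and 12 in the 3-month libraries. Per library size, the 3-month level was 18.4 times that at 6 months (95% exact interval 4.84 to 155, counting error only). Without 6-month replicate 1 it was 10.6 times, and without 6-month replicate 2, which left 0 counts at 6 months, the 6-month level was at least 8.46-fold lower than that at 3 months against a floor of 3 counts over the group. The adjusted p was 0.000547 in edgeR, and the fitted log2 fold change lay between -6.83 (without APP/PS1 6-month replicate 2, the library with the 2 counts) and -3.25 (without 6-month replicate 1). WT cortex held 0, 0 and 1 counts at 6 months, and in WT the 3-month level was 20.2 times that at 6 months (3.35 to 828), from 28 counts. At 9 months the name was counted again, at 1.74 to 2.97 CPM in APP/PS1 and 0.791 to 2.40 CPM in WT. Its sequence lies at chr8:70925541-70925563 on the plus strand.

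The other 4 names that fell all come from the Dlk1-Dio3 locus on chromosome 12, an imprinted region whose many miRNAs are made from the maternal chromosome and are abundant in brain. miR-337-5p had 356, 300.5 and 330.1 CPM at 6 months, against 433, 477 and 501 CPM at 3 months. Its groups lay well apart, and the log2 fold change was -0.52 (SE 0.09, adjusted p = 0.0012). The call held in all 6 fits that left out a library, with values between -0.57 and -0.46. The rarer arm miR-337-3p had a similar log2 fold change of -0.51 but did not pass (SE 0.26, adjusted p = 0.339).

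miR-409-5p, the most abundant of the 4, had 6224, 5727 and 4672 CPM at 6 months, against 7017, 7282 and 7767 CPM at 3 months. The groups did not overlap, and the log2 fold change was -0.41 (SE 0.10, adjusted p = 0.0167). Its other arm miR-409-3p had 546, 614 and 454 CPM against 625, 892 and 736 CPM, also without overlap (log2 fold change -0.48, SE 0.14, adjusted p = 0.056). The call of miR-409-5p was lost without 3-month replicate 3 (-0.38, adjusted p = 0.0522) and without 6-month replicate 3 (-0.31, adjusted p = 0.0647).

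miR-379-5p, at the head of the larger miRNA cluster of the locus, had 1023, 1022 and 983 CPM at 6 months, against 1203, 1289 and 1286 CPM at 3 months. Both groups were tight and did not overlap. On the log2 scale the fold change was -0.32 (SE 0.08, adjusted p = 0.0169), and that of miR-379-3p was -0.10 (SE 0.11, adjusted p = 0.794). The call was lost without 3-month replicate 2 (-0.30, adjusted p = 0.108) or 3 (-0.31, 0.0609) and without 6-month replicate 3 (-0.31, 0.0696). It was also lost with no filter on low counts (-0.34, adjusted p = 0.304) as well as with the 6 libraries alone (-0.35, 0.247).

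miR-412-5p had 38.2, 66.2 and 30.4 CPM at 6 months, against 76.2, 79.3 and 77.0 CPM at 3 months. Replicate 2 of the 6-month group lay nearest to the 3-month libraries. The log2 fold change was -0.79 (SE 0.19, adjusted p = 0.0181), and it was kept without that replicate 2 (-1.18, adjusted p = 1.65e-05). The call was lost without each of the other 5 libraries, at log2 fold changes of -0.79 to -0.57 and adjusted p between 0.0609 and 0.149. miR-409 and miR-412 lie next to each other in introns of the noncoding gene Mirg, at chr12:109743172-109743194 and chr12:109743303-109743325 on the plus strand, and their mature sequences above differ.

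**Figure D3:**
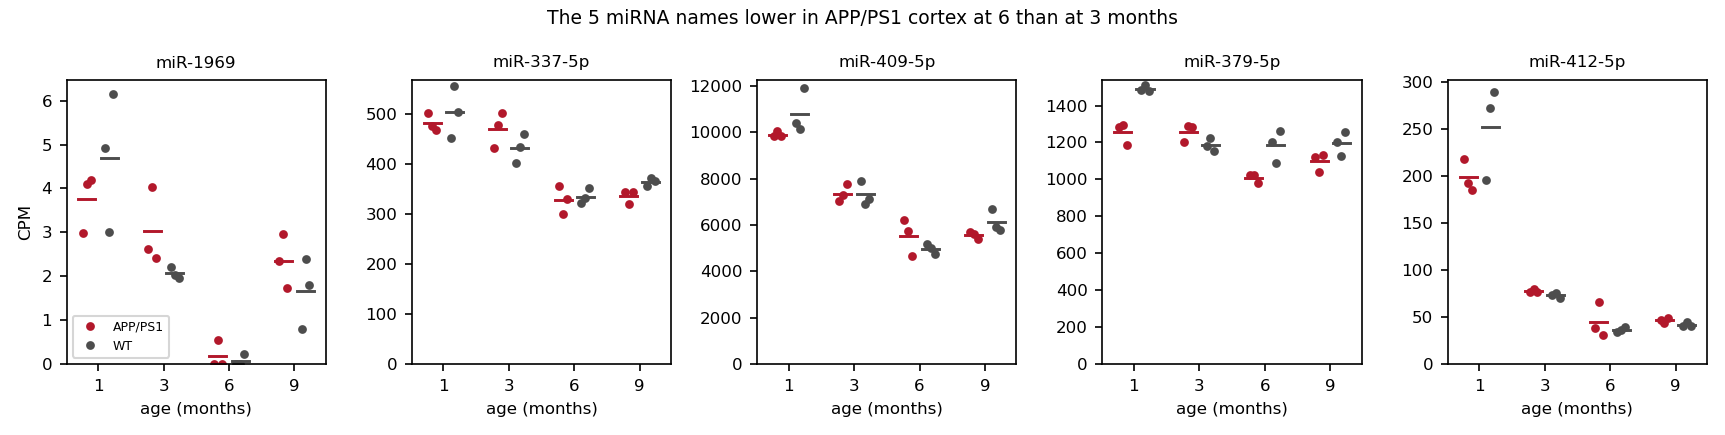
CPM (vertical, from 0) by age in months (horizontal) for the 5 names lower at 6 than at 3 months in APP/PS1 cortex, with 1 point per library and bars at group means, APP/PS1 in red and WT in grey. All APP/PS1 6-month libraries lie below all 3-month ones; the WT libraries of miR-379-5p overlap between those ages, and miR-1969 stands near 0 at 6 months only.

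Of the 112 listed names of the Dlk1-Dio3 locus, 91 were tested, of which 4 fell and 0 rose, and 14 (15.4%) did not overlap with lower values at 6 months, against 6.7% of all tested names. The median log2 fold change of the 91 was -0.14 in APP/PS1 and -0.08 in WT. In APP/PS1, 69 of the 91 (75.8%) lay below 0, against 138 of the 342 other names (40.4%), whose median was 0.06. Of these other names 1 was called lower. Under library totals alone, the median of all names moved to -0.07 and that of the locus to -0.23, with 4 calls still.

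Along the locus, 88 tested names had a position in the RefSeq table, in separate stretches. The first, from miR-770-5p at chr12:109563710 to miR-370-3p at chr12:109618326, held 25 names with a median of -0.08, 17 below 0 and 1 call, miR-337-5p. The second, from miR-379-5p at chr12:109709065 to miR-3072-3p at chr12:109747949, held 63 names with a median of -0.16, 50 below 0 and 3 calls. Lower values thus stood in both stretches. Of 37 precursors with both arms tested, 23 had both arms below 0, 10 had 1 and 4 had none. Members of 1 primary transcript are not replicates of each other.

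Of the 10 members that did not overlap and were not called, miR-323-3p (log2 fold change -0.58, SE 0.17, adjusted p = 0.0628), miR-409-3p and miR-485-3p (-0.34, adjusted p = 0.167) are examples. miR-376c-3p, a tested member without a position in the RefSeq table, and miR-3072-3p of the second stretch are members for which APP/PS1 6-month replicate 1 stood at the 3-month level. miR-3072-3p had 47.5 CPM in that replicate, with 24.8 and 24.7 CPM in the others, against 59.3, 51.5 and 45.3 CPM at 3 months. In WT it had 23.7, 24.4 and 30.8 CPM at 6 months, against 40.6, 47.0 and 49.7 CPM at 3 months.

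**Figure D4:**
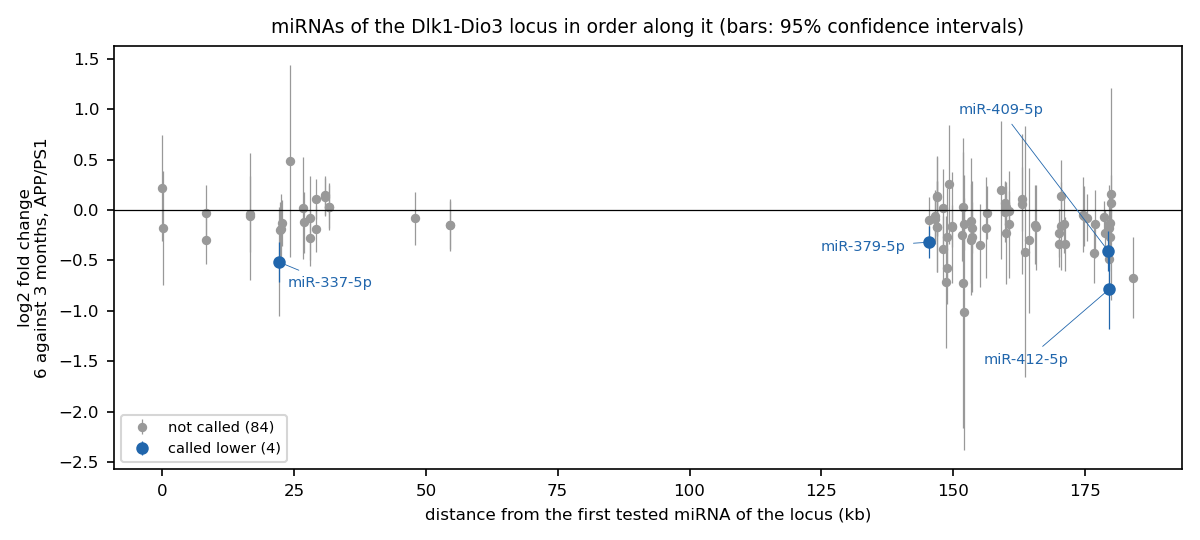
Log2 fold change of APP/PS1 6-month against 3-month libraries (vertical, bars are 95% confidence intervals) of 88 tested miRNAs of the Dlk1-Dio3 locus by distance in kb from the first of them (horizontal). The 4 that fell are in blue and labelled; most points of both stretches lie just below 0, with medians of -0.08 and -0.16.

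WT cortex was then set beside APP/PS1 cortex over the same ages. In the test of the difference between the genotypes' changes from 3 to 6 months, 0 of 433 names passed in edgeR (0%), with 15 at an unadjusted p under 0.05, and 0 passed in DESeq2. Of the 15 called names in APP/PS1, 14 had a WT log2 fold change of the same sign. Over the 433 names the log2 fold changes of the 2 genotypes had a Pearson r of 0.857, and of 0.612 over the names not called in APP/PS1, given as a description across names that are not independent. The labels give no library or sequencing batch, so age and any batch that both genotypes shared at an age cannot be told apart.

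The 4 names that passed in every fit had higher mean levels in WT than in APP/PS1 cortex at 6 months. miR-6481 had a lower mean in WT, at 1.78 to 10.6 CPM against 2.85 to 22.3 CPM in APP/PS1, with overlap. That order rested on APP/PS1 6-month replicate 1, without which the pooled level was 4.42 CPM in APP/PS1, against 5.98 CPM in WT. miR-690 had 678, 638 and 442 CPM in WT 6-month libraries, all above the APP/PS1 6-month libraries at 176, 286 and 373 CPM, and 19.9, 18.8 and 22.2 CPM at 3 months. Its log2 fold change was 3.85 in APP/PS1 and 4.85 in WT, a difference of -0.998 (95% interval -2.19 to 0.19). miR-3470a had 86.3, 56.3 and 98.1 CPM in WT at 6 months and 3.59, 3.13 and 4.14 CPM at 3 months. The difference of its changes was -0.73 (-1.83 to 0.36), and that of miR-3470b was -0.44 (-1.78 to 0.90). These intervals include 0, which does not show that the changes were equal. Without a filter on low counts, the difference passed in edgeR for miR-690 (-0.97, adjusted p = 0.0355) and for the predicted miRNA that follows it (-1.12, adjusted p = 0.0133). That fit also passed another predicted miRNA (1.18, adjusted p = 1.63e-08), miR-125a-5p (0.93, 3.34e-05), miR-346-5p (0.91, 0.00327) and miR-342-3p (0.76, 0.0133). In each of these a single APP/PS1 6-month library stood apart from the others of its group, replicate 1 for miR-342-3p and replicate 2 for the rest. The predicted miRNA of that fit with the value of 1.18 is not treated as a separate finding from miR-125a-5p. Its level lay between 0.599 and 0.843 of that of miR-125a-5p in the 6 APP/PS1 libraries of 3 and 6 months.

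miR-6481 was counted 59 times in the WT 6-month libraries and 1 time in those of 3 months, a ratio of 81.6 with a 95% exact interval from 14.1 to 3276. miR-412-5p had 33.9, 36.3 and 39.3 CPM in WT at 6 months and 73.1, 75.8 and 70.6 CPM at 3 months, a log2 fold change of -0.999 beside -0.79 in APP/PS1. miR-409-5p had one of -0.55 in WT beside -0.41, and miR-337-5p of -0.37 beside -0.52. The fall of these 3 in APP/PS1 thus stood beside values of the same sign in WT.

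The smallest p for a difference between genotypes belonged to miR-379-5p, at 1203, 1091 and 1264 CPM in WT 6-month libraries and 1182, 1224 and 1152 CPM in WT 3-month libraries. Its change was -0.32 in APP/PS1 and 0.00 in WT, a difference of -0.32 (95% interval -0.54 to -0.09, adjusted p = 0.996). Next came miR-100-5p, of the miR-99/100 family, with a difference of 0.36 (0.09 to 0.62), from -0.23 in APP/PS1 (adjusted p = 0.188; -0.32, adjusted p = 0.0146, when scaled by library totals alone) and -0.59 in WT. miR-7013-5p followed with -1.37 (-2.40 to -0.34) on few counts, 4 to 7 per APP/PS1 6-month library. The adjusted p was 0.996 for both. miR-92a-3p had a log2 fold change of 0.09 in WT beside 0.52 in APP/PS1, a difference of 0.43 (0.00 to 0.85).

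**Figure D5:**
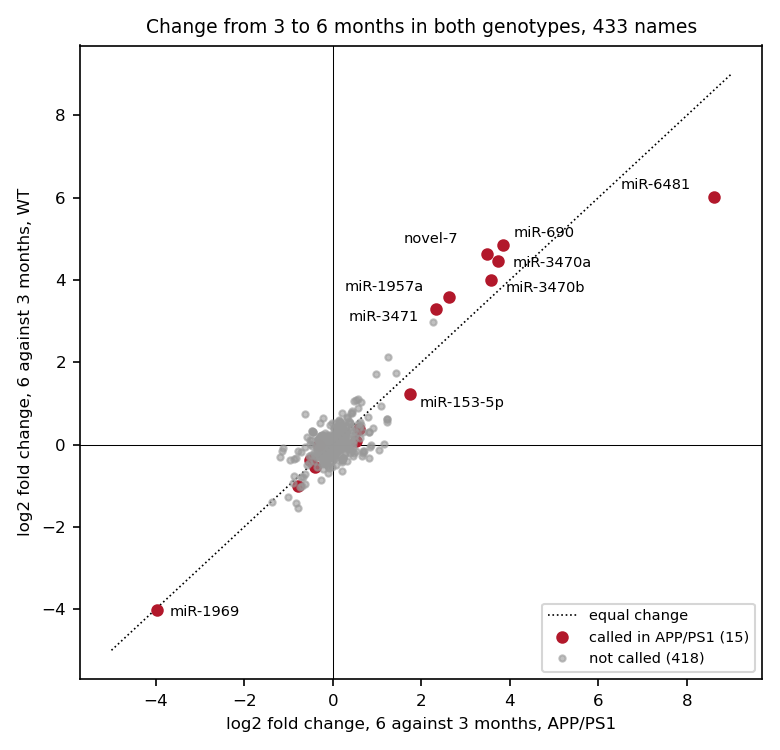
Log2 fold change from 3 to 6 months in APP/PS1 cortex (horizontal) and in WT cortex (vertical) for 433 names, with the 15 called in APP/PS1 in red and a dotted line of equal change; the fitted values of miR-6481 and miR-1969 rest on groups with 0 to 2 counts and depend on the prior count. 14 of the 15 red points have the same sign on both axes, and 0 names differed between the genotypes.

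The levels at 1 and 9 months place the 3 and 6 months among the other ages. miR-690 had 22.5 to 44.3 CPM at 1 month, 8.06 to 28.9 CPM at 3, 176 to 373 CPM at 6 and 62.5 to 177 CPM at 9 months in APP/PS1 cortex. In WT cortex it had 19.6 to 27.2, 18.8 to 22.2, 442 to 678 and 13.4 to 28.2 CPM at the same ages. miR-3470a had 4.59 to 4.78, 3.14 to 3.75, 30.8 to 58.2 and 9.17 to 23.6 CPM at 1, 3, 6 and 9 months in APP/PS1. Both names thus stood highest at 6 months, and in APP/PS1 their 9-month libraries lay above those of 3 months. miR-6481 was at 1.99 to 5.76 CPM in the APP/PS1 9-month libraries and at 0 in the WT ones.

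The Dlk1-Dio3 names took other courses. miR-412-5p had 184 to 218 CPM at 1 month, 76.2 to 79.3 CPM at 3, 30.4 to 66.2 CPM at 6 and 43.4 to 48.7 CPM at 9 months in APP/PS1. miR-409-5p had 9816 to 10038, 7017 to 7767, 4672 to 6224 and 5375 to 5678 CPM. miR-337-5p had 469 to 502, 433 to 501, 300.5 to 356 and 321 to 345 CPM. For miR-412-5p and miR-409-5p the levels lay lower at each step up to 6 months, whereas the 1-month and 3-month ranges of miR-337-5p overlapped, and the 6-month and 9-month ranges of all 3 overlapped.

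The 13 names often studied in Alzheimer disease gave 0 calls, beside 3.46% of all tested names, with log2 fold changes between -0.83 and 0.38, 6 above and 7 below 0. The immune and microglial miR-142a-5p had 649, 578 and 654 CPM at 6 months, against 553, 486 and 486 CPM at 3 months, without overlap, at a log2 fold change of 0.30 that did not pass (adjusted p = 0.22, SE 0.13). In WT it had a log2 fold change of 0.45. The inflammation-linked miR-146a-5p (0.27, adjusted p = 0.494) and miR-155-5p (0.36, adjusted p = 0.802) overlapped between the ages, and miR-155-5p rested on 5 to 21 counts per library. The activity-regulated pair miR-132-3p and miR-212-3p had values of -0.31 (adjusted p = 0.471) and -0.26 (adjusted p = 0.32).

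The neuronal miR-124-3p had a log2 fold change of -0.10 (95% interval -0.30 to 0.11) and miR-9-5p one of -0.12 (-0.40 to 0.17). miR-125b-5p had 0.38 (adjusted p = 0.233) and passed without APP/PS1 6-month replicate 1, at 0.62 (adjusted p = 0.00458). It did not pass without APP/PS1 6-month replicate 2, which held 112949 CPM. miR-107-3p had -0.23 (adjusted p = 0.32), miR-34a-5p 0.13 (adjusted p = 0.923) and miR-206-3p -0.83 (adjusted p = 0.638), the last on 3 to 46 counts per library. Of the most abundant names, miR-26a-5p stood at 102796 ± 4711 CPM at 6 months and 87377 ± 6552 CPM at 3 months (SD, n = 3 each; log2 fold change 0.23, adjusted p = 0.27, edgeR), and miR-99a-5p at 97507 ± 8126 and 84023 ± 9261 CPM (0.21, adjusted p = 0.351).

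The miR-29 family gave 0 calls among 5 tested names, beside 3.46% of all names, too few names to read from the count. miR-29b-3p had 2655, 2305 and 2337 CPM at 6 months, against 1923, 2224 and 2092 CPM at 3 months, and miR-29a-3p had 58.9, 64.0 and 63.6 CPM against 50.3, 50.6 and 58.2 CPM. Both did not overlap, as 9.7% of all names did not in that direction, at log2 fold changes of 0.23 each (adjusted p = 0.253 and 0.286). miR-29c-3p had 1538, 1339.8 and 1574 CPM at 6 months, against 1319, 1259 and 1342 CPM at 3 months, with overlap (0.18, adjusted p = 0.295). These 3 share the seed AGCACCA. The passenger arms lay the other way, with -0.36 for miR-29b-2-5p (adjusted p = 0.201) and -0.08 for miR-29c-5p (adjusted p = 0.806).

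The lists of other cell types and clusters gave 0 calls each, which for lists of 1 to 28 tested names is near the 3.46% called among all names. The 17 neuron-enriched names had a median of -0.10 and the 18 names reported to act on App or Bace1 one of 0.01, beside 0.02 over all names. Of the 18, 10 lay above 0, and 4 did not overlap with higher values at 6 months, beside 9.7% of all names. These 4 were miR-29a-3p, miR-29b-3p, miR-101a-3p (0.81, adjusted p = 0.0635, edgeR) and miR-384-5p (0.66, adjusted p = 0.471). miR-101a-3p passed in DESeq2 (adjusted p = 0.0383). The 7 immune and microglial names had a median of 0.21 with 6 above 0, and their summed level was 6725 to 7329 CPM at 6 months and 6072 to 6399.6 CPM at 3 months. Most of this sum was miR-146b-5p, at a mean of 5897 CPM at 6 months and 5111 CPM at 3 months. The sums did not overlap between the ages in APP/PS1. In WT the median was also 0.21. The WT sums were 6295 to 7888 CPM at 6 months and 5583 to 6303 CPM at 3 months, with overlap. Of the 7 names 2 did not overlap in APP/PS1, both higher at 6 months, beside 9.7% of all names. The part of these cells in the calls was not tested.

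The 7 erythrocyte names (5 distinct count profiles) had a median of 0.43, beside 0.63 in WT. Their summed levels in APP/PS1 were 1462 to 1823 CPM at 6 months and 1138 to 1740.5 CPM at 3 months. These sums are too high as levels, since the identical counts of miR-486a and miR-486b were both added. The 4 names of endothelium and vascular smooth muscle had a median of 0.27 (0.01 in WT), at 11143 to 12391 CPM and 10587 to 10839 CPM in APP/PS1. The 6 of choroid plexus and ependyma had one of 0.20 (-0.03 in WT), at 432 to 643 CPM and 394 to 562 CPM in APP/PS1. The blood and choroid plexus sums overlapped between the ages, and those of the vessel names did not. Most of the vessel sum was miR-126a-3p, at a mean of 9026 CPM at 6 months and 8201 CPM at 3 months. The part of these cell types in the calls was not tested. The Sfmbt2 cluster, a rodent repeat-rich cluster of which 28 names with 19 distinct profiles were tested, had a median of -0.24 with 22 below 0, beside -0.28 in WT; miR-466i-3p of this list maps to chromosome 13.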

How the data were processed

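The values were raw counts per mature miRNA name, as deposited by the authors in 1 table of 1927 names and 24 libraries. Per the labels' protocols, RNA was extracted with Trizol, made into TruSeq small RNA libraries and read single-end, adapters were cut with cutadapt 1.14 (reads of 17 to 35 bases), reads of quality under 20 were dropped with Trimmomatic 0.36, and reads matching other RNA families or repeats were dropped with BLAST 2.6.0. The known names follow miRBase 21.0, and miRDeep2 2.0.0.8 gave the predicted ones, per the labels' protocols. None of the sources used here gives the counting tool, the genome build or how reads with several matches were handled. Library totals lay between 2230030 and 6829622, which limits names with few counts most.

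Names passing edgeR's filter by expression (minimum count 10, total 15) numbered 433, of which 9 were predicted and 32 fell into 15 sets with identical counts. TMM-scaled counts entered a quasi-likelihood fit (edgeR 4.0.16 under R 4.3.3) that gave each of the 8 groups its own mean and had 16 residual and 4.64 prior degrees of freedom, and p was adjusted by Benjamini and Hochberg at 0.05. A standard error (SE) is the size of a log2 fold change over the square root of its F. The common biological coefficient of variation was 18.6%. Alternatives used RLE size factors, library totals, other filters, DESeq2 1.42.0, voom in limma 3.58.1, a replicate block, the 6 libraries alone, and fits without each library.

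The names were chosen by rule: up to 15 per direction by p among calls without overlap, the smallest p for the difference between genotypes, passing list members, the Alzheimer panel, the miR-29 family and the 5 most abundant. The members and lists were chosen with earlier results of these data known. Chosen after their values were seen were miR-125a-5p, miR-346-5p, miR-376c-3p, miR-3072-3p, miR-323-3p, miR-485-3p, miR-338-3p, miR-1193-5p, miR-101a-3p, miR-384-5p, miR-146b-5p, miR-126a-3p, the other arms and the names with many matches. Sequences and positions come from RefSeq (GRCm38.p6) and host genes from GENCODE M21. mRNA data of the study were not analysed here.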

Additional observations from a re-analysis of the deposited data

How the results depend on the processing

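The 15 calls (10 higher, 5 lower) became 28 (18 and 10) with no filter on low counts, 26 (16 and 10) in DESeq2 and 4 (4 and 0) in the 6 libraries alone; limma-voom called 8 lower. Without 1 library, the calls ranged from 9 to 36 in all, from 6 to 23 higher and from 2 to 13 lower. The difference between genotypes gave 6 calls with no filter and 0 with it, the 6 including predicted miRNAs that follow miR-690 and miR-125a-5p. Calls were 66.7% higher, against 53.8% under library totals alone, 55.6% in limma-voom and 100% in the 6 libraries alone. Fits without 1 library turned the sign of miR-9-5p (-0.23 to 0.036), miR-34a-5p (-0.15 to 0.42, also -0.04), miR-155-5p (-0.13 to 0.67) and miR-29c-5p (-0.18 to 0.0069), none of them called. The cause was not tested, except that fewer libraries leave fewer residual degrees of freedom.

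The replicate numbers did not pair the mice: deviations of same-numbered APP/PS1 6-month and 3-month libraries correlated at -0.09, 0.34 and 0.08, and 1 of 3 correlated best with its own number. With a replicate block there were 14 calls, miR-92a-3p having missed the threshold (adjusted p = 0.0508), and no other call changed.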
